A study of Homo sapiens with 11 samples.

Results

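Ikaros binding was compared between JM1 and Nalm6 cells that had both received 20 µM CX-4945 for 1 day. The members were the peaks on chromosomes 1 to 22 and X of 1 Ikaros ChIP-seq peak list per line, with the longer JM1 list cut to as many top-scored peaks as the whole Nalm6 list held, so that the lists were of nearly equal length. They numbered 141760 of the 300249 peaks in the 5 lists of the series, 70866 of them in Nalm6, and 17728 lower-scored JM1 peaks were left out. A peak was called shared where it overlapped a peak of the other line by at least 1 bp, and line-only otherwise. JM1 and Nalm6 are established human lines grown from B-cell precursor acute lymphoblastic leukemia. The study also holds untreated JM1, REH and 697 lists, which were used here only to look up the same positions. Each group was a single line with no genetic change named in the labels. An untreated Nalm6 list was not analysed here, so the comparison sets line against line under the drug and does not measure the drug's effect. The JM1 and REH libraries were made with a commercial Bethyl antibody, whereas the labels name an affinity-purified one for Nalm6 and 697. Line and antibody therefore cannot be told apart in any difference given here. There was 1 JM1 Ikaros library and 2 Nalm6 Ikaros libraries behind 1 Nalm6 list, and the library or libraries that gave that list are not stated in the sources used here. With 1 list per line no difference had a replicate check and no test was run.

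Ikaros, encoded by IKZF1, is a zinc finger transcription factor that binds DNA at sites with a GGGAA core and is needed for B-cell development. It recruits chromatin remodelling complexes and acts as a tumour suppressor in B-cell precursor leukemia. The kinase CK2 phosphorylates Ikaros and lowers its DNA binding, and CX-4945 (silmitasertib) is an ATP-competitive inhibitor of CK2. Nalm6 is known as a line with a DUX4 rearrangement, a class of leukemia in which ERG and a small group of other genes are deregulated.

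The sequences beneath top-ranked line-only and shared promoter peaks are shown first, read from the GRCh38 plus strand, 5′ to 3′. The first set was chosen because the letters CCGGAA, the core recognised by ETS factors, were more frequent in the central windows of the top JM1-only promoters than of the shared ones. The sequences show where these letters lie in peaks of both kinds and do not themselves show that contrast. The letters lie at least 361 bp from the peak centre in all but RPS19. For shared peaks the window and the centre are those of the JM1 peak. The RPS19 window lies outside the Nalm6 peak it is shared with (41859975 to 41860815). Capitals mark CCGGAA or its complement TTCCGG.
N6AMT1 (JM1 only), chr21:28885111-28885171: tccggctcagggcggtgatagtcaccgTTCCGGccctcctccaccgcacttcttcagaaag
NELFCD (JM1 only), chr20:58980924-58980984: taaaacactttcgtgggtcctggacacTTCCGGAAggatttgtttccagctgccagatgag
FMC1 (JM1 only), chr7:139340276-139340336: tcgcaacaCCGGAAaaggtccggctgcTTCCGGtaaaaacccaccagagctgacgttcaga
RPS19 (shared), chr19:41859834-41859894: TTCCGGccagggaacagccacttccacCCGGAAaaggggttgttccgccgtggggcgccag
DUSP22 (shared), chr6:292731-292791: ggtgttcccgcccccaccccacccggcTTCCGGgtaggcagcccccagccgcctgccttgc
ABCB10 (shared), chr1:229558150-229558210: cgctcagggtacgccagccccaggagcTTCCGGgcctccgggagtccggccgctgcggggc

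The second set shows the Ikaros core at other top promoter peaks of JM1 alone, of Nalm6 alone and of both lines. Shared windows were again placed within the JM1 peak. The marked SP1 core lies before the start of the Nalm6 peak (53380116), whereas the GEN1 window lies inside both peaks. Capitals mark GGGAA or its complement TTCCC.
XRCC2 (JM1 only), chr7:152675976-152676036: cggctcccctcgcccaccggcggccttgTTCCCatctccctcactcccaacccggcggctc
IQUB (JM1 only), chr7:123535122-123535182: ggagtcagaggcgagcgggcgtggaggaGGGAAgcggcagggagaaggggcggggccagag
DTL (JM1 only), chr1:212035270-212035330: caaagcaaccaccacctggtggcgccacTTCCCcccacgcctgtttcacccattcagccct
LINC02726 (Nalm6 only), chr11:23730587-23730647: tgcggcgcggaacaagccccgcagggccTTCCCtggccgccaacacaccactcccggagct
RPS2P32 (Nalm6 only), chr7:23490478-23490538: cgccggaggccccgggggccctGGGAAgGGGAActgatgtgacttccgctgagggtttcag
ABCC13 (Nalm6 only), chr21:14274009-14274069: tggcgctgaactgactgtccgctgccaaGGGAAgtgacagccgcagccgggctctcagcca
SP1 (shared), chr12:53380067-53380127: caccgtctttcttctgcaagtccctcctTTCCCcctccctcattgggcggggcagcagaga
GEN1 (shared), chr2:17754034-17754094: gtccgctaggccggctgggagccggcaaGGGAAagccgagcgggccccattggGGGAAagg

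Letters of the Ikaros core were thus found under peaks of all 3 kinds, and RPS2P32 and GEN1 each carried GGGAA more than once within the 61 bases shown. Over the whole peaks, XRCC5, a JM1-only peak of 787 bp, held 4 CCGGAA and 7 GGGAA matches. SLC9A7P1, BOD1L2 and TJP1, all Nalm6-only, held 0 GGGAA matches in peaks of 399, 478 and 975 bp. Such matches describe letters in the reference genome and not bound sites.

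More of the Nalm6 list than of the JM1 list lay at shared positions. Of the JM1 peaks, 41149 were shared, or 58.0% (95% exact Clopper-Pearson interval 57.7 to 58.4%), and 29745 were in JM1 alone. Of the Nalm6 peaks, 48877 were shared, or 69.0% (68.6 to 69.3%), and 21989 were in Nalm6 alone. The peaks in 1 list alone thus made up 42.0% of the JM1 list and 31.0% of the Nalm6 list. These intervals cover counting error only. In bases, JM1 peaks covered 158.5 Mb and Nalm6 peaks 99.1 Mb, which is 5.23% and 3.27% of chromosomes 1 to 22 and X. The 73.3 Mb covered by both were 46.2% of the JM1 bases and 74.0% of the Nalm6 bases. JM1 peaks were also the wider ones, with a median of 1343 bp in JM1 and 862 bp in Nalm6. A total of 6254 JM1 peaks spanned several Nalm6 peaks, whereas 1008 Nalm6 peaks spanned several JM1 peaks. The extreme case was a JM1 peak of 95904 bp named for the pseudogene AK6P1 on chromosome 12 (34311296 to 34407199), which overlapped 16 separate Nalm6 peaks. Under a stricter rule that asks each peak to cover 50% of the other, 29.0% of JM1 and 29.0% of Nalm6 peaks were shared.

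Shared peaks were the broader and higher-scored ones in both lists. The authors' score is a whole number per peak with no stated common scale, so each score was turned into a percentile within its own list. JM1-only peaks had a median width of 821 bp and a median percentile of 32.0, against 1908 bp and 64.5 for shared JM1 peaks. Nalm6-only peaks had a median width of 449 bp and a median percentile of 29.8, against 1128 bp and 58.9 for shared Nalm6 peaks. The shared share climbed at every step of the score order, from 30.2% in the lowest decile of JM1 peaks to 90.9% in the highest, and from 34.7% to 95.9% in Nalm6. The highest JM1 score, 2101 near AC231981.1, and the highest Nalm6 score, 4176 near RNU6-488P, both belonged to shared peaks. The latter was an intergenic peak of 378 bp, and the next Nalm6 score was 257. Positions of unusually high signal were not filtered out here. The lower limit of the JM1 list was a score of 13, held by 6439 peaks of which 2164 were kept. Those kept at 13 were overlapped by Nalm6 in 26.5% of cases and those left out at 13 in 26.6%, next to 31.6% at a score of 14 and 23.7% at 12.

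**Figure D1:**
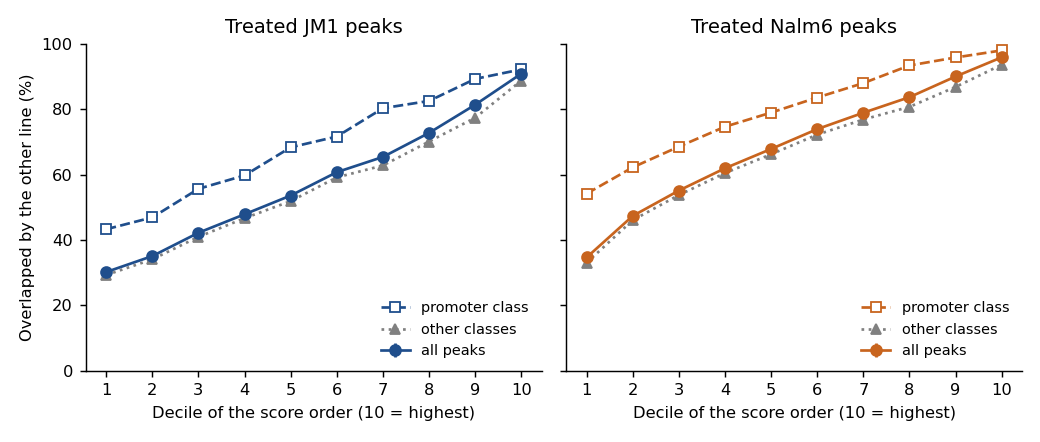
Percent of treated JM1 peaks (left) and treated Nalm6 peaks (right) overlapped by the other line, by decile of the score order within each list, for all peaks (filled circles, with 95% exact intervals that are smaller than the points), promoter-class peaks (squares) and other classes (triangles). The share goes from 30.2 to 90.9% in JM1 and from 34.7 to 95.9% in Nalm6, and promoter-class peaks lie above the other classes in every decile.

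Promoters were the part of the genome the treated lines had most in common. In the authors' annotation, promoter-class peaks made up 8.89% of JM1-only peaks (8.56 to 9.21%) and 7.56% of Nalm6-only peaks (7.21 to 7.92%), against 25.7% of shared JM1 and 24.5% of shared Nalm6 peaks. Counted the other way, 80.0% of JM1 promoter peaks were shared, against 46.3% of its intergenic peaks. In Nalm6 the shared share was 87.8% for promoter peaks and 57.6% for intergenic ones. Introns held 44.3% of JM1-only and 45.0% of Nalm6-only peaks, and intergenic sequence 36.02% and 35.91%, so the class makeup of the line-only peaks was close between the lines. They parted at the top of the score order. In the highest decile 644 JM1 peaks were line-only and 52.8% of them were promoter-class, whereas 289 Nalm6 peaks were line-only and 24.9% were promoter-class.

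**Figure D2:**
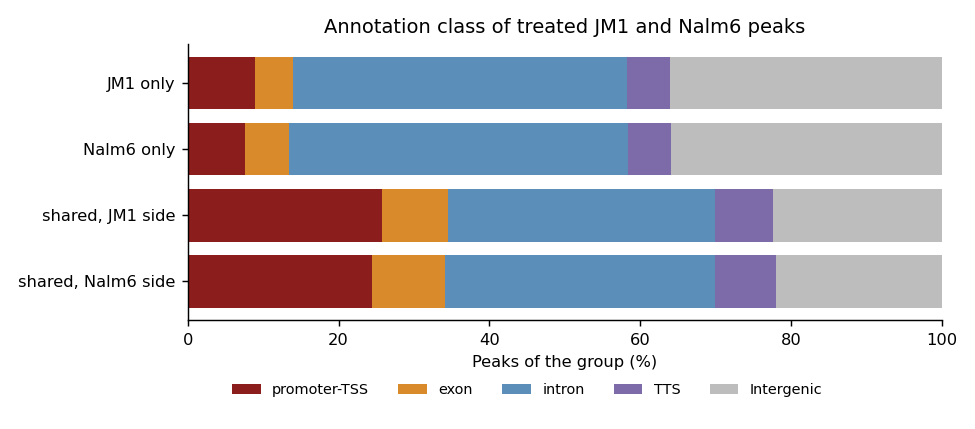
Share of peaks in each annotation class for JM1-only, Nalm6-only, shared JM1 and shared Nalm6 peaks (horizontal stacked bars, percent of the group). The promoter class takes 8.89 and 7.56% of the line-only groups and 25.7 and 24.5% of the shared groups.

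The transcripts behind line-only promoter peaks were also of a different kind. Protein-coding transcripts were nearest to 65.2% of JM1-only and 59.1% of Nalm6-only promoter peaks, against 82.6% and 82.9% of shared JM1 and Nalm6 promoter peaks. Pseudogene transcripts were nearest to 9.91% of JM1-only and 17.2% of Nalm6-only promoter peaks, against 2.76% and 2.60% of the shared ones. A further 8.40% of JM1-only promoter peaks named a transcript absent from the annotation used here. Gene naming also differed between the deposited lists. No gene name was given for 7.47% of JM1-only peaks, against 0.28% of shared JM1 peaks, and no peak of the Nalm6 list was without one.

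Each peak carries 1 gene name, so a further gene that starts in the same promoter is not named. The strongest JM1-only promoter peak lay at N6AMT1, which encodes a protein methyltransferase, on chromosome 21 (28884949 to 28886379). Its score of 1051 was the fourth highest of the JM1 list, and the nearest Nalm6 peak was 106179 bp away. XRCC5, which encodes the Ku80 subunit of non-homologous end joining, followed with 477, and XRCC2, a gene of homologous recombination, with 438. NELFCD, a subunit of the negative elongation factor of RNA polymerase II, had a JM1-only peak of 4410 bp with a score of 362. FMC1, a mitochondrial ATP synthase assembly factor, scored 298 and IQUB, a protein of cilia and sperm flagella, 262. DTL, the substrate receptor of a ubiquitin ligase that acts at replication forks, and ASNSD1 both scored 253. All 8 of these peaks were present in the untreated REH list, and 5 of them, those at N6AMT1, XRCC2, NELFCD, FMC1 and IQUB, in the untreated JM1 list. XRCC2, NELFCD and IQUB were also present in the 697 list, which was made with the antibody used for Nalm6.

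The 8 highest JM1-only promoter peaks stood at or above percentile 99.91 of the JM1 list, and the 8 highest Nalm6-only ones at 98.37 to 99.12 of the Nalm6 list. Scores are comparable only within a list. LINC02726, a long noncoding RNA gene, the pseudogene SLC9A7P1, and BOD1L2 each scored 74, and the pseudogenes DUSP5P2 and RPS2P32 scored 72 and 68. TJP1, which encodes the tight junction protein ZO-1, and ABCC13, a transporter pseudogene, scored 67. Noncoding genes and pseudogenes did not prevail further down the order, since of the 340 JM1-only and 73 Nalm6-only promoter peaks at or above the 90th percentile, 77.6% and 64.4% were nearest to a protein-coding transcript, and 2.35% and 19.2% to a pseudogene. Of the Nalm6 peaks named, those at LINC02726, BOD1L2 and TJP1 overlapped JM1 peaks that the cut had left out. Over all 21989 Nalm6-only peaks, 16.7% overlapped a left-out JM1 peak. The highest line-only score outside promoters was 295 in JM1, at the transcript end class near SUMF2, followed by LRFN3 with 222, UQCC2 with 203, TBCB with 150 and RN7SL480P with 148. In Nalm6 these were IKZF1 with 224, AC021074.3 with 97, ABBA01006766.1 with 89 and DMRTA1 with 81.

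The Nalm6-only IKZF1 peak stood apart in score, width and place. It spanned 249 bp on chromosome 7 (50376538 to 50376786) and was the third-highest scored peak of the Nalm6 list, with a score of 224. It began 5 bp inside and ended 7 bp inside exon 4 of IKZF1, a coding exon within the block of exons that encode the DNA-binding zinc fingers. None of the treated JM1, untreated JM1, REH or 697 lists had a peak there. The nearest treated JM1 peak, with those left out by the cut included, was 3282 bp away. Of the 6936 Nalm6 peaks narrower than 300 bp, the median score was 16 and 3 scored over 60, the other two being at KDM4A with 63 and near AL359649.1 with 70. The exon is printed here with 15 intronic bases on each side in lower case and the exon in capitals, plus strand, GRCh38.
IKZF1 exon 4, chr7:50376518-50376808: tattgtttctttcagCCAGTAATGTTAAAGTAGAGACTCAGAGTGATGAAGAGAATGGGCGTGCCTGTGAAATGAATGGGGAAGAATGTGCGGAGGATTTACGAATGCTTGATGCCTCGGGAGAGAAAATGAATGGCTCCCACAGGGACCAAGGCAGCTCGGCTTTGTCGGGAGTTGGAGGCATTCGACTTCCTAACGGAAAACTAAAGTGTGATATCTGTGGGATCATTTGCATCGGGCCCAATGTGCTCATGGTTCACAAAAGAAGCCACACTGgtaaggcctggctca

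The next high Nalm6 score in the gene lay over the coding stretch of the last exon, exon 8. A peak of 1058 bp scored 117 there in Nalm6, against 14 for the JM1 peak inside it. Unlike the exon 4 peak, this Nalm6 peak began 243 bp before its exon, in the intron, and 77.0% of it lay in the exon. It ended at 50400732, beyond the end of the coding stretch at 50400624. The untreated REH, 697 and JM1 lists scored 35, 17 and 12 at that exon. Nalm6 had no peak over exons 5, 6 and 7, whereas JM1 had low-scored peaks touching exons 5 and 6. At the IKZF1 promoter the lines were alike, with scores of 46 in JM1 and 52 in Nalm6 at percentiles of 92.8 and 94.7. Along the whole gene JM1 had 9 peaks in its cut list and Nalm6 had 4. Reads were not analysed here, so whether the scores of 224 and 117 over coding exons come from Ikaros binding at the gene or from IKZF1 coding sequence without introns in the Nalm6 libraries was not tested.

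**Figure D3:**
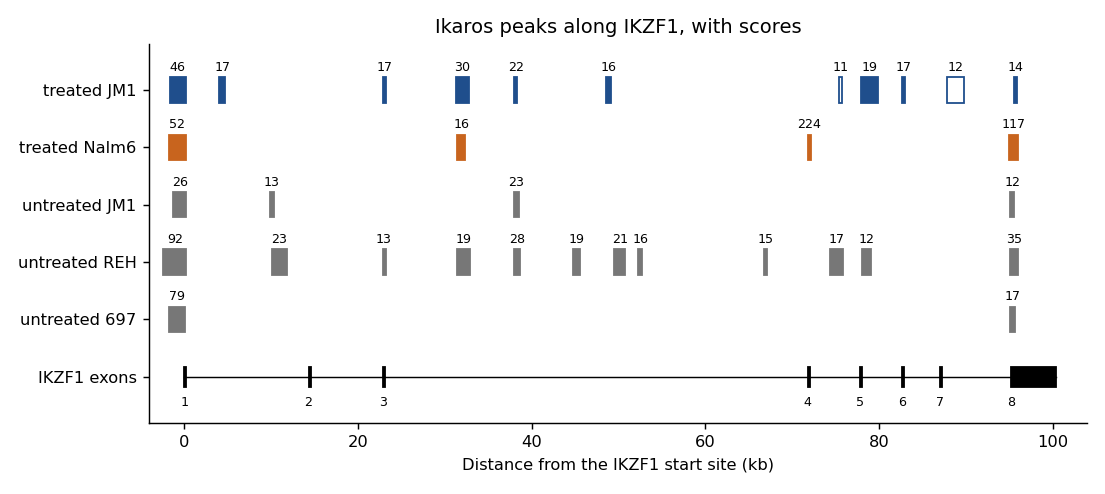
Ikaros peaks along IKZF1 in the treated JM1, treated Nalm6, untreated JM1, untreated REH and untreated 697 lists (rows), by distance from the gene's start site in kb, with the authors' score above each peak and exons 1 to 8 in the lowest row. Open boxes are JM1 peaks left out by the cut, and very narrow peaks are drawn at a minimum width. The peak of score 224 over exon 4 appears in the Nalm6 row alone.

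Among the shared promoters, the positions that ranked highest in both lines were at ZC3H14, C6orf136, SP1, RPS19, LINC02482, GEN1, DUSP22 and ABCB10. ZC3H14 encodes a poly(A) RNA-binding protein and scored 236 in JM1 and 96 in Nalm6. SP1, which encodes a GC-box binding factor, scored 218 in JM1 and 133 in Nalm6, the fourth-highest Nalm6 score. RPS19, a ribosomal protein gene mutated in Diamond-Blackfan anemia, scored 212 in JM1 and 96 in Nalm6. All 8 lay at or above the 99.7th percentile of both lists. Over 40329 best-matching pairs of shared peaks, Spearman's rho of the percentiles was 0.50, a description across peaks of the same libraries. It was 0.37 over the 8192 pairs that were promoter-class in both lists. The JM1 peak was the wider one in 74.97% of pairs, with a median width ratio of 1.49.

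Some shared promoters stood at opposite ends of the lists. The kinase gene CSNK1A1, encoding casein kinase 1 alpha, was at percentile 98.8 in JM1 and 0.66 in Nalm6, with scores of 95 and 10. DNAJC28 stood at 99.6 and 3.56, ZNF624 at 98.3 and 3.56, SIL1 at 93.5 and 0.66, and ZBTB41 at 99.9 and 8.18, in JM1 and Nalm6 in each case. In the other direction NEBL-AS1 was at 7.49 in JM1 and 99.7 in Nalm6. CIAPIN1, an iron-sulfur cluster assembly gene, was at 7.49 and 99.4, and ANXA2, which encodes annexin A2, at 7.49 and 97.9. The netrin receptor gene UNC5C and the sodium leak channel gene UNC80 were both at 1.53 in JM1 and 91.4 in Nalm6. Over the 7353 promoter pairs with the same gene name in both lists, 3995 ranked higher in JM1 and 3358 in Nalm6, with a median difference of 1.55 percentile points.

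At the level of genes, most protein-coding promoters carried a peak in both treated lines. A gene was counted where any part of a peak lay within 1000 bp of one of its start sites in GENCODE release 44. A gene's percentile is that of its highest-scored such peak in the line, which can lie at different start sites in JM1 and Nalm6. Of 19962 protein-coding genes, 14299 (71.6%) had such a peak in both lists, 1591 (7.97%) in JM1 alone, 583 (2.92%) in Nalm6 alone and 3489 (17.5%) in neither. Any JM1 peak near a start site was present at 79.6% of genes and any Nalm6 peak at 74.6%. Wider peaks are counted more readily by this rule, and JM1 peaks were the wider ones. When the peak centre had to lie within 1000 bp, 12268 genes (61.5%) had a peak in both, 1737 (8.7%) in JM1 alone and 1669 (8.36%) in Nalm6 alone, so the excess of JM1-alone genes was nearly gone. Where a gene had a peak in JM1 alone, the median percentile of that peak was 70.9, against 88.5 for the JM1 peaks of genes bound in both. For Nalm6-alone genes it was 48.1, against 87.1 for the Nalm6 peaks of genes bound in both. Untreated REH had a peak at 83.9% of JM1-alone and 70.5% of Nalm6-alone genes. Untreated JM1 had one at 31.4% of JM1-alone genes and 697 at 14.4% of Nalm6-alone genes. The share of all protein-coding genes with a peak in these untreated lists is not given here, so whether these values depart from it was not tested. In the uncut JM1 list, 32.1% of the Nalm6-alone genes had a peak.

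B-lineage transcription factor genes nearly all had a promoter peak in both lines under the any-part rule. Of the 30 listed, 29 had a peak in both and 1, IKZF3, in JM1 alone, next to the 71.6% and 7.97% of all protein-coding genes. The count depended on the rule, with 25 of 30 in both lines by peak centre and 14 of 30 by a promoter-class peak under the gene's name. Over all protein-coding genes these rules gave 61.5% and 32.1% in both lines. IKZF3 encodes Aiolos, the Ikaros family member of later B-cell stages, and its JM1 peak stood at percentile 96.6. It was also present in the REH and 697 lists and not in the untreated JM1 list. The median percentile of the list was 92.6 in JM1 and 86.2 in Nalm6, beside 87.7 and 86.2 over all genes with a peak in the line. POU2F1, encoding the octamer factor OCT1, was at 99.9 in JM1 and 97.3 in Nalm6. ERG and RUNX1 ranked higher in Nalm6, at 92.5 and 95.9 in JM1 and 98.9 and 98.8 in Nalm6. IRF4 stood at 97.6 in JM1 and 98.7 in Nalm6, and IKZF2, which encodes Helios, at 98.4 in JM1 and 58.9 in Nalm6.

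Genes of the pre-B cell receptor and of B precursor surface markers numbered 30, of which 24 had a peak in both lines and 3 in JM1 alone, beside the 71.6% and 7.97% of all genes. The 3 were BTK, the kinase downstream of the receptor, BLNK, its adaptor, and CD38, at percentiles of 91.2, 55.9 and 50.8. MS4A1, IL7R and CRLF2 had a peak in neither line. CD79A, a signalling chain of the receptor, was at 98.3 in JM1 and 58.9 in Nalm6, SYK at 96.3 and 34.8, and IGLL1, a surrogate light chain gene, at 95.1 and 29.8. PLCG2 was at 92.1 in JM1 and 96.3 in Nalm6. MME, which encodes CD10, was at 93.5 in JM1 and 93.9 in Nalm6. Among the 14 recombination and end-joining genes, 10 had a peak in both lines, near the 71.6% of all genes. XRCC5 and DCLRE1C, the gene for Artemis, had a peak in JM1 alone, XRCC4 in Nalm6 alone, and DNTT in neither. LIG4, the ligase of this pathway, was at 95.1 in JM1 and 99.3 in Nalm6. XRCC6, which encodes Ku70, the partner of the XRCC5 product, was at 99.04 in JM1 and 62.01 in Nalm6.

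CK2, the target of the drug, was represented by its catalytic and regulatory subunit genes together with PP1, the phosphatase that opposes it on Ikaros. Of these 7 genes, 6 had a peak in both lines and CSNK2A3 in neither. For this list and the 2 that follow, the any-part share of all protein-coding genes is 71.6% in both lines and 7.97% in JM1 alone. PPP1CB, a PP1 catalytic subunit gene, was at 99.9 in JM1 and 97.7 in Nalm6, and CSNK2A2, the CK2 alpha prime gene, at 99.04 in JM1 and 99.03 in Nalm6. Of the 28 genes of the PI3K and inositol lipid pathway, 24 had a peak in both, and PIK3C3 and PIP5K1A were among those with one in JM1 alone, at 38.9 and 82.7. PIK3CD, encoding the leukocyte catalytic subunit, was at 91.2 in JM1 and 98.9 in Nalm6. In the BCL2 family 16 of 17 genes had a peak in both and BCL2A1 in neither. By peak centre 11 of 17 BCL2 family genes had a peak in both, near the 61.5% of all protein-coding genes. Under that rule the PI3K list had 23 of 28 and the CK2 and PP1 list 5 of 7. BBC3, encoding the BH3-only protein PUMA, was at 97.98 in JM1 and 99.19 in Nalm6, and MCL1 at 98.7 and 90.1.

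Of 32 cell cycle genes, 28 had a peak in both lines. CDC7, a kinase that fires replication origins, had a JM1 peak at percentile 99.6 and CCNB1, the cyclin B1 gene, one at 81.3, both in JM1 alone. ORC1, a subunit of the origin recognition complex, had a Nalm6 peak at 83.0 and none in the uncut JM1 list. CDKN2A had a peak in neither. CDK4 was at 99.4 in JM1 and 97.3 in Nalm6. Chromatin regulator genes had a peak in both lines in 27 of 30 cases, or 26 by peak centre, beside 71.6% and 61.5% of all genes. EED, KDM5A and TET2 had one in JM1 alone at 97.8, 73.6 and 94.3. KMT2A and SMARCA4 were among the top JM1 peaks, with scores of 584 and 486, and stood at 95.1 and 87.9 in Nalm6. CREBBP went the other way, at 55.9 in JM1 and 99.5 in Nalm6.

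In the remaining lists, too, most genes had a peak in both lines, as did 71.6% of all protein-coding genes. Both lines had a peak at 19 of 22 JAK-STAT and cytokine receptor genes, with IFNGR1 in JM1 alone, and at 21 of 23 glucose uptake and glycolysis genes, with SLC2A3 and TXNIP in JM1 alone. IFNAR1, an interferon receptor gene, was at 99.7 in JM1 and 55.6 in Nalm6, whereas JAK1 was at 97.0 in JM1 and 99.4 in Nalm6. Of 34 ribosomal protein genes 26 had a peak in both, a share near that of all genes, and 7 in JM1 alone, beside 7.97% of all genes. These 7 were RPL3, RPL23, RPL27, RPS3, RPS9, RPS18 and RPS27, with RPS3 highest at 96.6. Among 26 adhesion and homing genes, 22 had a peak in both, PECAM1 in JM1 alone and CD44 in Nalm6 alone at 87.1, where the uncut JM1 list did have a peak. The 39 HOX genes had a peak in both in 37 cases, with HOXA13 and HOXD9 in JM1 alone. In all these lists, Nalm6-alone members under the any-part rule were XRCC4, ORC1 and CD44. By peak centre they were more, for example 6 among the HOX, 4 among the cell cycle, 3 among the adhesion, 3 among the pre-B and 3 among the myeloid marker genes, and HOX genes with a peak in both numbered 22 of 39.

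Genes reported in DUX4-rearranged leukemia were of interest because of the known rearrangement of Nalm6. Of 10 such genes, 6 had a peak in both lines, CD44 in Nalm6 alone, and CLEC12A, STAP1 and CD2 in neither. Over the few members with a peak, the median percentile was 83.4 in JM1 and 93.5 in Nalm6, beside 87.7 and 86.2 over all genes with a peak. AGAP1 was at 67.9 in JM1 and 98.9 in Nalm6, and PTPRM at 64.4 and 97.7. PDGFRA was at 90.8 in JM1 and 88.7 in Nalm6. Promoters of genes that mark other cell types also carried peaks in both lines, at 6 of 10 T cell, 8 of 10 myeloid, 4 of 8 erythroid, 6 of 8 neuron and 4 of 8 liver marker genes, beside 71.6% of all protein-coding genes. These counts describe promoters with a peak, since expression was not measured. The median percentile was also higher in Nalm6 in each of these marker lists, so that order was not particular to the DUX4 list. In JM1 and Nalm6 it was 75.9 and 80.4 for T cell, 67.9 and 79.7 for myeloid and 53.3 and 79.7 for erythroid genes. For neuron genes it was 86.1 and 92.2, and for liver genes 53.3 and 63.0. Most of the other gene lists had the higher median in JM1.

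The line-only peaks were looked up in the untreated lists, which the choice of peaks had not used. Of JM1-only peaks, 10.5% (10.2 to 10.9%) were found in untreated JM1, 46.3% (45.7 to 46.8%) in REH and 2.07% (1.91 to 2.24%) in 697. Of Nalm6-only peaks, 7.29% (6.95 to 7.64%) were found in untreated JM1, 45.9% (45.2 to 46.5%) in REH and 2.63% (2.42 to 2.85%) in 697. With the lists at this length, the line-only peaks of both lines were thus found in REH about equally often. Peaks in none of the 3 untreated lists were 51.2% of JM1-only and 51.7% of Nalm6-only peaks. Shared peaks were found far more often, on the JM1 side in 52.1% for untreated JM1, 92.2% for REH and 34.0% for 697. Lists of unequal length enter here, with 37419 untreated JM1, 83516 REH and 19610 697 peaks on these chromosomes. Peak width enters too, since wider peaks meet a peak of another list more readily. The median width was 821 bp in JM1-only, 449 bp in Nalm6-only and 1908 bp in shared JM1 peaks. The part of width in these shares was not tested. At or above the 90th percentile, 644 JM1-only peaks were found in untreated JM1, REH and 697 in 44.25%, 83.85% and 20.96% of cases, and 296 Nalm6-only peaks, ties included, in 17.6%, 73.6% and 22.6%. When both lists were first cut to their 35000 highest scores, the REH share of the line-only peaks was 69.7% for JM1 and 77.9% for Nalm6.

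**Figure D4:**
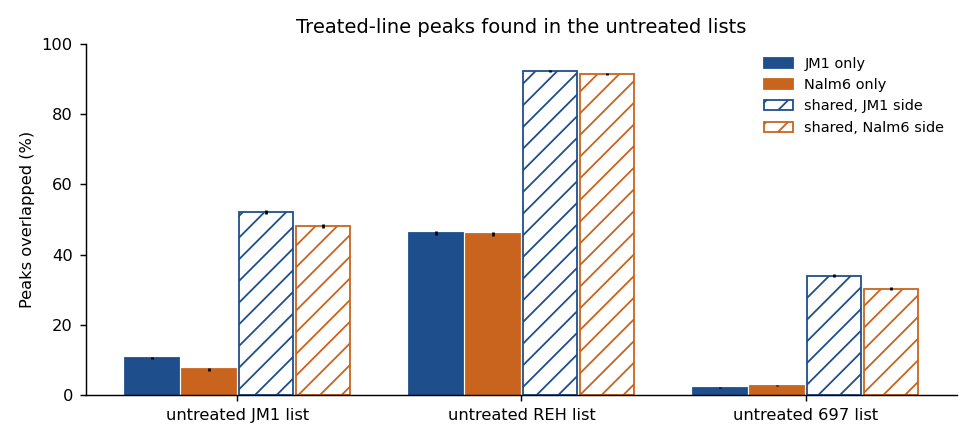
Percent of JM1-only, Nalm6-only, shared JM1 and shared Nalm6 peaks overlapped by at least 1 bp in the untreated JM1, REH and 697 lists, with 95% exact intervals for counting error. The line-only bars stand at 46.3 and 45.9% for REH and at 2.07 and 2.63% for 697, all under the shared bars.

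The lines also differed in how their peaks were spread over chromosomes. The ratio of JM1 to Nalm6 peaks lay between 0.81 on chromosome 22 and 1.36 on chromosome X, with 1.20 on chromosome 1 and 1.18 on chromosome 20. Line-only peaks showed it more sharply, with 700 JM1-only and 287 Nalm6-only peaks on chromosome X, 1441 and 614 on chromosome 20, and 3741 and 1922 on chromosome 1. On chromosome 1 the excess lay beyond 130 Mb, where JM1 had 3638 and Nalm6 2355 peaks, a ratio of 1.54. In the first 130 Mb there were 4173 JM1 and 4173 Nalm6 peaks. Within that first stretch was a block poor in JM1 peaks, with 16 JM1 and 88 Nalm6 peaks from 4 to 5 Mb and 16 JM1 and 75 Nalm6 peaks from 5 to 6 Mb. Untreated JM1 had 2 peaks in each of these megabases and REH 109 and 94. The 697 list had 10 and 11 there, against 66 in the megabase before and 46 in the megabase after. Low counts in this block were thus not particular to JM1. The uncut JM1 list had 35 and 37 peaks there, against 125 in the megabase before and 98 in the megabase after. The cut had therefore removed part of the JM1 peaks in this block, and the uncut list was still low there. The largest local excess of JM1 was from 51 to 52 Mb of chromosome 20, with 82 JM1 and 31 Nalm6 peaks. Over the 2856 bins of 1 Mb with a peak in either list the counts ran together, with a Spearman's rho of 0.93, a description of bins that share gene density and base composition. Copy number and input coverage were not analysed here, so their part in these ratios was not tested.

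**Figure D5:**
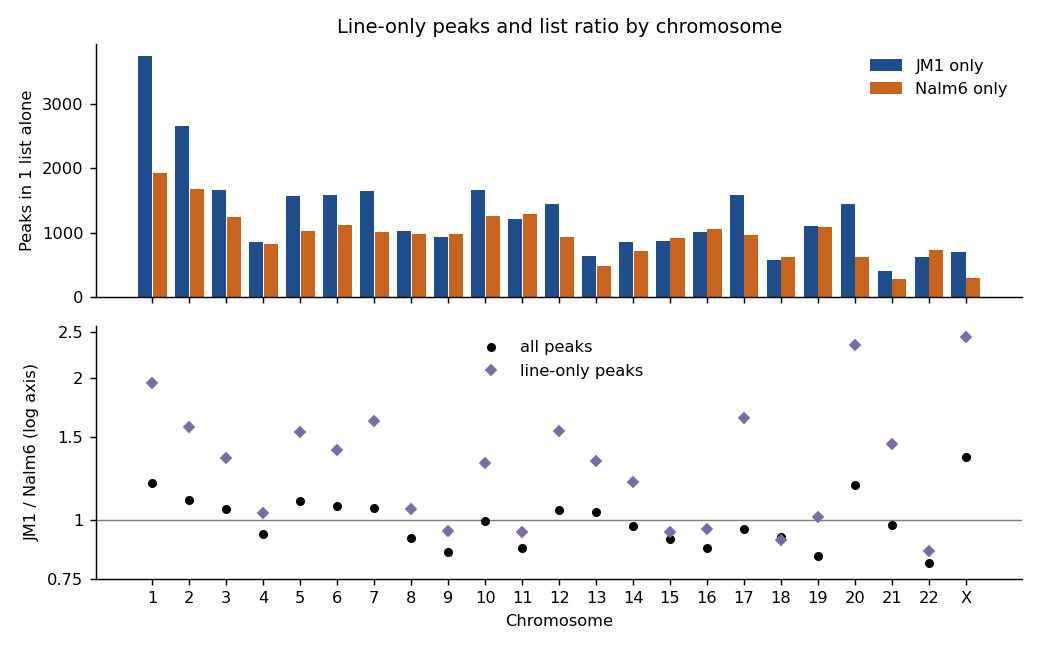
Number of JM1-only and Nalm6-only peaks on each chromosome (top) and the ratio of JM1 to Nalm6 peaks on a log axis (bottom), for all peaks (circles) and line-only peaks (diamonds). Chromosomes X, 20 and 1 have the highest ratios of line-only peaks, at 2.44, 2.35 and 1.95.

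Peaks were also counted per gene name. GALNT2 on chromosome 1, a glycosyltransferase gene, had 29 JM1 and 9 Nalm6 peaks, PRKCE, the protein kinase C epsilon gene, 25 and 8, and the zinc transporter gene SLC39A11 21 and 5. In the other direction MAD1L1, a spindle checkpoint gene, had 34 JM1 and 61 Nalm6 peaks and ZMIZ1, a transcriptional coregulator gene, 30 and 55. KCNAB2 and AJAP1, both near the start of chromosome 1, each had 8 JM1 and 31 Nalm6 peaks. Gene names with line-only peaks and none in the other list were few in peaks. AC138655.1 led in JM1 with 7, followed by 7 names with 6 peaks each, among them LARP7P1, LINC01992 and CFAP61. KIAA1217 and LINC02782 led in Nalm6 with 7 each, followed by MRPS21P8 and Z98747.1 with 6. The line-only sites were not isolated, since the median JM1-only peak was 7755 bp from the nearest Nalm6 peak and the median Nalm6-only peak 5938 bp from the nearest JM1 peak.

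Base composition differed between line-only and shared peaks. In the 100 bp on either side of the peak centre the median GC content was 53.2% in JM1-only and 55.2% in Nalm6-only peaks, against 59.7% in shared JM1 and 61.2% in shared Nalm6 peaks. The shared share was 31.1% in JM1 and 38.1% in Nalm6 for peaks under 40% GC, and 83.0% and 82.9% for peaks at 60% or more. GGGAA, searched on both strands, was present in 50.2% of JM1-only, 48.7% of Nalm6-only, 51.4% of shared JM1 and 51.4% of shared Nalm6 windows, against 37.8% of windows of the same length on a 10 kb grid over the genome, whose median GC content was 39.8%. Among windows of 60% GC or more, promoter-class peaks were left out, while grid windows were chosen by GC content alone and can include promoters. GGGAA was present there in 51.4% of JM1-only, 51.7% of Nalm6-only, 52.2% of shared JM1 and 51.5% of shared Nalm6 windows. It was present in 51.6% of those grid windows, so at that GC content these peaks held it no more often than the grid. From 50 to 60% GC, with windows chosen in the same way, it was present in 52.8% of JM1-only and 49.4% of Nalm6-only windows. The shared JM1 and shared Nalm6 values were 53.0% and 54.3%, against 41.4% of grid windows. Between the 4 groups the Ikaros core differed by less than 3 percentage points over all windows. The GC box GGGCGG did differ, at 7.91% in JM1-only and 12.4% in Nalm6-only windows, against 24.2% in shared JM1 and 26.0% in shared Nalm6 windows. CAGCTG, an E-box of E2A, was at 14.8% in JM1-only and 16.8% in Nalm6-only windows, close to 15.7% and 17.2% in the shared ones.

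The ETS core was more frequent in the windows of the top JM1-only promoters. CCGGAA, searched on both strands, was present in 26.2% (21.6 to 31.2%) of the 340 JM1-only promoter peaks at or above the 90th percentile, against 13.9% of 4034 shared JM1 promoter peaks at that height. It was present in 9.59% (3.94 to 18.8%) of 73 Nalm6-only and 12.2% of 3644 shared Nalm6 promoter peaks, and in 12.9% of the windows of that length that end at the start sites of 34959 RefSeq promoters. The contrast was picked after the values had been seen. In peaks of 1500 bp or less it was 28.4% in JM1-only and 18.4% in shared JM1 promoter peaks. Over promoter-class peaks of all scores the share was 11.4% in JM1-only and 11.1% in shared JM1 windows. In Nalm6 it was 7.10% in line-only and 11.3% in shared promoter windows. The JM1-only excess was thus not seen over promoter peaks of all scores. Over all classes and scores the share was 3.53% in JM1-only and 4.03% in Nalm6-only windows, against 6.32% and 6.59% in the shared JM1 and Nalm6 ones. Those groups differ in their promoter share.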

How the data were processed

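Ikaros ChIP-seq and input libraries were sequenced as paired ends, and BBDuk was used for trimming per the labels' protocols. Per the submitters' processing notes the tools were HOMER 4.10, MACS2 2.1.1 and Bowtie2 2.3.4.3, with GRCh38 as the build. The peak score is a whole number per peak deposited by the authors, per the file headers. The sources used here do not give its definition, the call settings or the control, so scores were ranked only within a list, as midrank percentiles. Read depth was not analysed here. The members and gene lists were chosen with earlier results of these data known.

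JM1 peaks tied at the cut were kept in chromosome order. Overlaps, percentiles and exact Clopper-Pearson intervals were computed in Python (numpy, pandas, scipy and pysam) and the overlap code was tested on simulated intervals. Shared pairs were mutual best overlaps. Named genes were the 8 highest-scored line-only promoter peaks and 5 other line-only peaks per line, the 8 names with the most peaks in 1 list alone, the 8 best shared promoters, the 5 largest percentile differences each way, and gene-list members with a peak in 1 list alone or the highest percentiles. The 61-base windows were read from GRCh38 outside UTRs, and the promoter background was taken from RefSeq (GRCh38.p14). Each line gave 1 list, so no test across samples was run. The alternatives tried are given at the end. Some members chosen by these rules are not reported here.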

Additional observations from a re-analysis of the deposited data

How the results depend on the processing

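No paired analysis was possible because each line gave 1 list and no result came from a test. Shares counted as unchanged where they stayed within the 95% exact interval of the reported value, and such intervals are narrow, so most alternatives moved them; the order of line-only under shared promoter shares held under each alternative tried. Percentages are given here in the order JM1 shared, Nalm6 shared, then promoter share of JM1-only, Nalm6-only, shared JM1 and shared Nalm6 peaks. They were 29.0, 29.0, 12.7, 13.5, 33.4 and 33.2% with reciprocal overlap of 50%, and 34.8, 34.8, 11.9, 13.1, 31.3 and 30.8% with 500 bp around peak centres. They were 50.7, 74.2, 7.67, 7.18, 24.3 and 23.4% with the uncut JM1 list. With the 35000 top-scored peaks of each list they were 56.8, 64.5, 16.0, 13.6, 38.9 and 37.5%, and with the 10000 top-scored 48.5, 49.4, 51.4, 36.6, 59.4 and 59.8%. The Nalm6-only promoter share exceeded the JM1-only one under the first 2 rules and with peaks over 10 kb left out. With those broad peaks left out 56.7% of JM1 and 62.4% of Nalm6 peaks were shared, and the promoter share was 9.52% in Nalm6-only and 25.1% in shared Nalm6 peaks. Dropping the JM1 peaks tied at the limit gave 59.0 and 68.2% shared, and keeping all of them 56.3 and 70.6% with 25.3% of shared JM1 peaks in promoters. Leaving out JM1 peaks with no gene name, an alternative added after seeing the data, gave 58.8 and 69.7% shared.

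With the 35000 top-scored peaks, JM1-only peaks were found in untreated JM1, REH and 697 in 25.1, 69.7 and 7.19% of cases and Nalm6-only peaks in 24.9, 77.9 and 13.6%. By promoter-class peaks under the gene name, 2440 genes were JM1 alone, 2318 Nalm6 alone and 6414 both, and by peak centres 1669 were Nalm6 alone. With windows of 50 bp on either side of the centre GGGAA was present in 29.7% of JM1-only, 28.3% of Nalm6-only, 30.7% of shared JM1 and 30.5% of shared Nalm6 peaks. The correlation of percentiles was unchanged with ranks within the whole JM1 list. Depth was not analysed here, and the cause of each of these shifts was not tested beyond the change of rule itself.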
